A study of Mus musculus with 6 samples.

Results

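The AP-1 and EGR immediate early factors are 10 transcription regulator genes, Fos, Fosb, Jun, Junb, Jund, Egr1, Egr2, Atf3, Ier2 and Nr4a1, chosen by name from the 26082 gene names of the expression table. RNA-Seq of 6 samples of leukemia cells from mice gave their mRNA levels. Whether each sample came from a single mouse is not stated in the sources used here. The leukemia carried the MLL-AF9 fusion oncogene, introduced by retrovirus into bone marrow progenitors of C57BL/6J background and passed through recipient mice. The vehicle group held 3 samples from leukemic mice that received vehicle. The DS-5272 group held 3 samples from leukemic mice that received 80 mg/kg of DS-5272, an oral inhibitor of the p53-MDM2 interaction. In both groups leukemia cells were taken from bone marrow 24 h after dosing. The recipients kept their own marrow cells, GFP marked the leukemia cells in other experiments of the study, how the RNA-Seq cells were gated and the ages of the mice are not given in the sources used here, and the leukemia of all mice came from serial transplantation, so the samples share an origin. Each group had replicates numbered 1, 2 and 3, and the values of a group are given in that order throughout. The question for these genes was how their mRNA differed between DS-5272 and vehicle, within same-numbered replicates, and between replicate 1 and replicates 2 and 3 inside each group.

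Immediate early genes are transcribed within minutes of a signal, without new protein synthesis, from promoters that hold serum response factor and CREB sites and that MAP kinases switch on. FOS and JUN proteins pair through leucine zippers to form AP-1, which binds DNA at AP-1 sites, while EGR factors bind GC-rich sites with zinc fingers. In myeloid cells AP-1 and EGR factors take part in macrophage and granulocyte maturation and in inflammatory gene expression, and the same mRNAs are known to rise quickly when tissue is dissociated and cells are handled. Atf3 is also known as a p53-responsive and stress-responsive gene.

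Of the 10 genes, 8 had a promoter window in the RefSeq promoter table of build GRCm38.p6, and Egr1 and Ier2 had none there. A CRE half-site, TGACG on either strand, lay within the 250 bases before the start of 6 of these 8 genes (Fos, Fosb, Junb, Egr2, Atf3 and Nr4a1), while 17.8% of all 32851 windows held one. A CArG box, the serum response factor site, was found within these 250 bases in windows of Egr2 only, against 1.47% of all windows. Bases farther upstream were not searched, so the absence of an element here does not mean that the gene lacks it. The EGR site, GCGTGGGCG or GCGGGGGCG, occurred in Fosb and Nr4a1 (3.06% of all windows). The Jun window held the variant CRE TGACATCA (2.93% of all windows), and none of the 8 genes held the full CRE TGACGTCA (1.55%) or the AP-1 site TGAGTCA or TGACTCA (4.46%) in these windows. The stretch searched for Jund, chr8:70697489-70697738, ended well before the GENCODE start of Jund at 70698949. The bases just before that start were not searched. The full CRE contains the half-site. A gene was counted if any of its windows held the element, and Egr2 had several windows. The percentages are shares of single windows, so the 2 are not in the same unit. The 130 bases before the start are printed for the genes whose windows differ most in these elements, from 5′ to 3′ on the strand of the gene, with CRE half-sites (CGTCA where they lie on the other strand), the variant CRE and the CArG box in capitals. They lie at chr12:85473760-85473889 (plus strand), chr8:84978749-84978878 (minus strand), chr4:95052223-95052352 (minus strand), chr10:67537739-67537868 (plus strand, 1 of several annotated starts) and chr15:101266716-101266845 (plus strand).
Fos: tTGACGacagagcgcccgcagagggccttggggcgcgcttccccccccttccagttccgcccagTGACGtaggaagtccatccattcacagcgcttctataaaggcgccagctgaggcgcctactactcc
Junb: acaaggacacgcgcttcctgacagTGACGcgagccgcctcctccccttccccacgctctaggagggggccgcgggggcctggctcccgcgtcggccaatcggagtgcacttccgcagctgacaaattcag
Jun: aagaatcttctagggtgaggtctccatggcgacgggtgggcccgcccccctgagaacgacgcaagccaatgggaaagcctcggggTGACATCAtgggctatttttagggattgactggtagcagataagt
Egr2: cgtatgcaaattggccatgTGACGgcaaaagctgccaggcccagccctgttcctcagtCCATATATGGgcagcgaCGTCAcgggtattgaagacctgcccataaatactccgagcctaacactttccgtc
Nr4a1: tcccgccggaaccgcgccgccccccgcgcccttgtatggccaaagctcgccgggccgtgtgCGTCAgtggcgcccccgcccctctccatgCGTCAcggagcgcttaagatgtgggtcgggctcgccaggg
Fos thus carried a half-site at the far end of its stretch and another near the middle, Egr2 a CArG box between a pair of half-sites, and Nr4a1 a pair of half-sites on the opposite strand. A match describes the letters only, and the searched elements were chosen after expression values had been seen.

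In the GENCODE annotation of GRCm38, Jun, Jund and Ier2 each consist of 1 exon, and the others have spliced transcripts. Jun (chr4:95049034-95052222, minus strand), Junb (chr8:84974484-84978718, minus strand) and Jund (chr8:70698949-70700616, plus strand) have exons that overlap a gene of the opposite strand, Junos, Prdx2 and Gm11175, respectively. The libraries were strand-specific, but no source says whether the fragment assignment used the strand, so fragments of these partners could enter the values. Prdx2, the partner of Junb, stood at 74.5, 64.0 and 68.5 FPKM under vehicle and at 76.8, 73.2 and 65.2 FPKM under DS-5272. The other genes, Fos (chr12:85473890-85477273, plus strand), Fosb (chr7:19302696-19310051, minus strand), Egr1 (chr18:34859823-34864984, plus strand), Egr2 (chr10:67535475-67542188, plus strand), Atf3 (chr1:191170296-191218039, minus strand), Ier2 (chr8:84661331-84662852, minus strand) and Nr4a1 (chr15:101254269-101274795, plus strand), share no exon sequence with another annotated gene.

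The deposited values are FPKM, fragments scaled to transcript length and library size, so levels can be set side by side between genes. All 10 genes averaged at least 1 FPKM, the filter for testing, and were among the 11130 genes tested with limma on log2(FPKM + 1), two-sided. This scale understates the change of low genes. Over these genes 2697 were upregulated and 2451 downregulated at an adjusted p under 0.05, and rescaling to a common total gave 1713 and 3555. The depth read from the steps of low values was greatest in vehicle replicate 1 and, within the DS-5272 group, in DS-5272 replicate 1, and the other samples had from 0.540 to 0.886 times its depth. Among the 8 markers of the labelled cells in the table, Meis1 had at least 66.1 FPKM and Pbx3 at least 127.8 FPKM in every sample, Mpo fell from at least 140.4 FPKM under vehicle to at most 12.2 FPKM under DS-5272 and Kit from at least 30.5 to at most 12.1 FPKM, while Mef2c was nearly absent under vehicle, at 0.295 FPKM or less. Among 11 lymphoid markers 8 stayed under 1 FPKM in all samples. The p53 targets Mdm2 and Cdkn1a were higher with DS-5272 in each same-numbered pair, with log2 fold changes of 1.36 and 2.43 (limma adjusted p = 0.073 and 0.061, and 0.015 and 0.014 in the blocked fit). Mdm2 stood at 27.1, 36.3 and 40.0 FPKM under vehicle and at 42.6, 78.8 and 210 FPKM under DS-5272. Cdkn1a stood at 14.8, 28.1 and 25.5 FPKM under vehicle and at 32.3, 117 and 485 FPKM under DS-5272. The rise was thus uneven, with DS-5272 replicate 3 the highest sample for both genes. For 1 gene the smallest p of an exact permutation test is 0.1 in this design of 3 samples a group. Nothing in the labels says more of how replicates were separated than that they are separate samples.

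As deposited, FPKM of the immediate early factors was higher with DS-5272 than with vehicle in each same-numbered pair of samples. In both groups replicate 1 had less of these mRNAs than replicates 2 and 3. In the deposited values all 10 genes were higher with DS-5272 in all 3 pairs (9, all but Jun, after rescaling to a common total), while 41.8% of the tested genes were. Their median log2 fold change was 1.32, against 0.04 over all tested genes. When the groups were compared without regard to replicate number, Egr2 and Nr4a1 were upregulated and no gene of the 10 was downregulated by limma at the 0.05 threshold, against 24.2% upregulated and 22% downregulated among all tested genes. At an unadjusted limma p under 0.05 the counts were 2 and 0, while 6187 of the 11130 tested genes passed in either direction. With the replicate block, in which same-numbered samples are compared, 8 of the 10 were upregulated (30.3% of all tested genes), and Fosb and Jun were not. In bulk samples a higher level in each cell and a larger share of cells with the mRNA cannot be told apart.

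**Figure D1:**
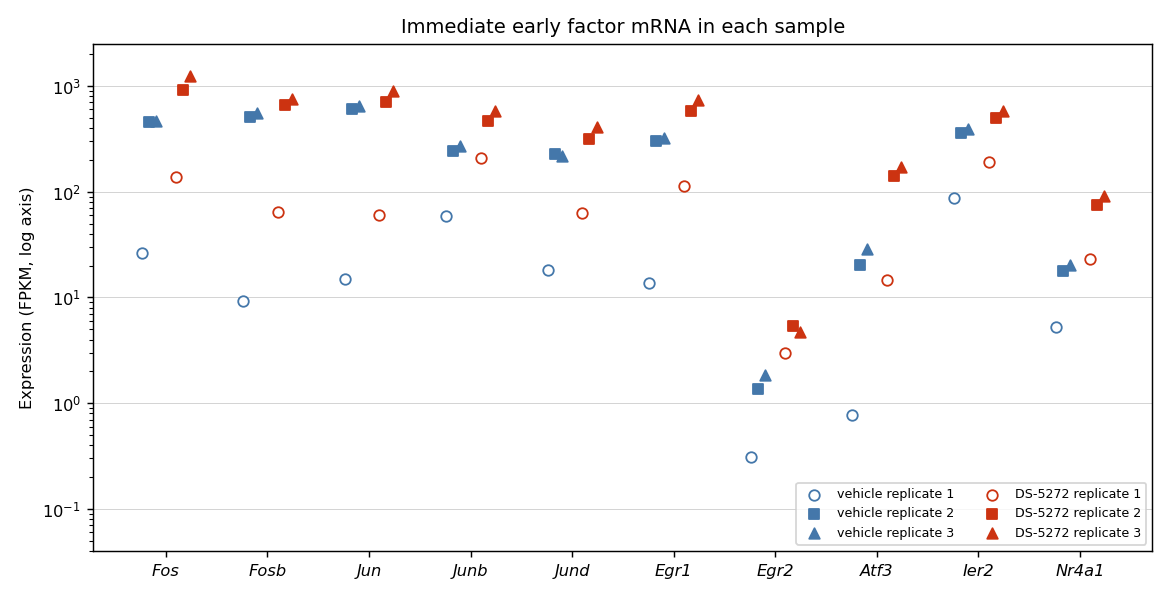
Expression of each immediate early factor in FPKM on a log axis, with 1 point per sample, vehicle in blue and DS-5272 in red, and replicate 1 as open circles. The open circles lie below the filled symbols of the same color for every gene, and each DS-5272 symbol lies above the vehicle symbol of the same shape.

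Among the FOS family, Fos encodes the prototype AP-1 subunit, which needs a JUN partner to bind DNA. Fos stood at 26.3, 456 and 465 FPKM under vehicle and at 138, 909 and 1233 FPKM under DS-5272. The low value of each group was replicate 1, and DS-5272 replicate 1 lay below vehicle replicates 2 and 3, so the groups overlapped. The log2 fold change was 1.58 with a SE of 1.30 (limma adjusted p = 0.343), and it was 0.22 without vehicle replicate 1. With the replicate block the same change had a SE of 0.25 and was called (limma adjusted p = 0.0045).

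Fosb encodes a FOS paralog with the same DNA-binding and zipper design. Fosb stood at 9.34, 506 and 556 FPKM under vehicle and at 64.0, 664 and 758 FPKM under DS-5272. Within pairs the DS-5272 value was 6.86, 1.31 and 1.36 times the vehicle value, largest in pair 1. Its log2 fold change of 1.16 (SE = 1.71, limma adjusted p = 0.596) did not pass the threshold, nor did it with the block (SE = 0.45, limma adjusted p = 0.070). Without vehicle replicate 1 the log2 fold change of Fosb was −0.73.

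In the JUN family, Jun encodes a strong activator that can pair with itself or with FOS and ATF proteins and is switched on by JNK. Jun stood at 14.8, 613 and 651 FPKM under vehicle and at 60.4, 704 and 906 FPKM under DS-5272. Both replicates numbered 1 were far below the other 4 samples, and the groups overlapped. The log2 fold change was 0.88 (SE = 1.67, limma adjusted p = 0.685) and missed the threshold with the block too (SE = 0.33, limma adjusted p = 0.067). It was −0.90 without vehicle replicate 1, and after rescaling to a common total 9 of the 10 genes, all but Jun, were higher with DS-5272 in every pair.

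Junb encodes a JUN protein with weaker activating function that can restrain Jun and is prominent in myeloid cells. Junb stood at 58.7, 241 and 269 FPKM under vehicle and at 209, 466 and 583 FPKM under DS-5272. It had the highest level of the 10 genes in DS-5272 replicate 1. The change was 1.29 on the log2(FPKM + 1) scale (SE = 0.65, limma adjusted p = 0.141), and it passed the threshold with the block (SE = 0.17, limma adjusted p = 0.0031). Without vehicle replicate 1 it was 0.59.

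Jund encodes the JUN protein usually regarded as the most constant of the family. Jund stood at 18.1, 227 and 219 FPKM under vehicle and at 62.4, 313 and 413 FPKM under DS-5272. It followed the same order, with replicate 1 low in both groups. The log2 fold change was 1.03 (SE = 1.12, limma adjusted p = 0.470), or 1.03 with a SE of 0.23 and an adjusted p of 0.013 with the block. Without vehicle replicate 1 it was −0.15, and with a common total the block no longer gave a call (adjusted p = 0.054, in a span of 0.013 to 0.894 over its alternatives).

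The balance inside the AP-1 families differed by replicate as well. Junb mRNA was 3.97, 0.393 and 0.412 times Jun mRNA in vehicle replicates 1, 2 and 3 and 3.46, 0.662 and 0.644 times in DS-5272 replicates 1, 2 and 3. Junb thus exceeded Jun in both replicates numbered 1 and was below it in the other 4 samples. The ratio of Fos to Fosb was 2.81, 0.902 and 0.836 with vehicle and 2.16, 1.37 and 1.63 with DS-5272 in replicates 1, 2 and 3. Fos therefore exceeded Fosb in all DS-5272 samples and in vehicle replicate 1, and it was slightly below Fosb in vehicle replicates 2 and 3. In FPKM, Ier2 was the highest of the 10 genes in vehicle replicate 1, Jun in vehicle replicates 2 and 3, and Fos in DS-5272 replicates 2 and 3, while Egr2 was the lowest in every sample. These ratios are descriptions of single samples with no test.

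The EGR factors are zinc finger activators, and Egr1 is the classical serum-induced gene of the family. Egr1 stood at 13.8, 301 and 326 FPKM under vehicle and at 114, 583 and 739 FPKM under DS-5272. The pattern matched that of Fos, with a fold difference of 8.26 in pair 1 and of 1.94 and 2.27 in pairs 2 and 3. The log2 fold change was 1.70 (SE = 1.31, limma adjusted p = 0.315 directly and 0.013 in the blocked fit), and it was 0.23 without vehicle replicate 1.

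Egr2, which has known roles in macrophages and in nerve myelination, was scarce but separated the groups. Egr2 stood at 0.308, 1.36 and 1.84 FPKM under vehicle and at 2.99, 5.32 and 4.69 FPKM under DS-5272. All DS-5272 values lay above all vehicle values. Egr2 was upregulated with a log2 fold change of 1.34 (SE = 0.32, limma adjusted p = 0.015), and at this level the added pseudocount of 1 understates the change, which was 2.04 with a pseudocount of 0.1. The call held when any single sample was left out and was lost without replicate 2 in both groups (adjusted p = 0.101, where its alternatives spanned 0.0022 to 0.101).

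Atf3 encodes a bZIP factor of the ATF family that pairs with JUN proteins and often represses inflammatory genes. Atf3 stood at 0.777, 20.2 and 28.8 FPKM under vehicle and at 14.7, 142 and 171 FPKM under DS-5272. It had the largest fold difference of the 10 genes in every pair, at 18.9, 7.01 and 5.92. DS-5272 replicate 1 was below both vehicle replicates 2 and 3, and the groups overlapped. The log2 fold change of 2.81 (SE = 1.31) had a limma adjusted p of 0.119, against 0.00035 with the block (SE = 0.14) and 0.041 without DS-5272 replicate 1, and its alternatives spanned 0.00035 to 0.286. Without vehicle replicate 1 the log2 fold change of Atf3 was 1.53.

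Nr4a1, an orphan nuclear receptor needed for patrolling monocytes, rose by nearly the same factor in every same-numbered pair. Nr4a1 stood at 5.22, 17.8 and 20.5 FPKM under vehicle and at 23.3, 75.3 and 90.4 FPKM under DS-5272. The DS-5272 value was 4.46, 4.23 and 4.41 times the vehicle value in pairs 1, 2 and 3, and the groups did not overlap. The likeness of these factors depends on how replicates 2 and 3 are matched, and no label states the pairing. Nr4a1 was upregulated with a log2 fold change of 2.03 (SE = 0.64, limma adjusted p = 0.039 directly and 0.00032 in the blocked fit). The direct call did not survive leaving out vehicle replicate 1 or 2 (adjusted p = 0.094 and 0.068) or DS-5272 replicate 2 or 3 (0.108 and 0.112), and its alternatives spanned 0.00026 to 0.156.

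Ier2, a nuclear regulator induced by serum and stress, had the smallest log2(FPKM + 1) change over all 6 samples, although the ratio of group means was smaller for Jun (1.31) and Fosb (1.39) than for Ier2 (1.52). Ier2 stood at 88.2, 358 and 390 FPKM under vehicle and at 189, 500.3 and 586 FPKM under DS-5272. Its fold differences within pairs lay between 1.40 and 2.15, and the groups overlapped, with DS-5272 replicate 1 below vehicle replicates 2 and 3. With a common total the blocked call was lost (adjusted p = 0.060). The log2 fold change was 0.72 (SE = 0.67, limma adjusted p = 0.399 directly and 0.0073 in the blocked fit, with alternatives from 0.0073 to 0.967), and it was 0.03 without vehicle replicate 1.

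The groups failed to overlap for 2 of the 10 genes, Egr2 and Nr4a1, while 32.1% of the tested genes had every DS-5272 value above every vehicle value. In the other 8 genes DS-5272 replicate 1 lay below both vehicle replicates 2 and 3. When both samples numbered 1 were left out, 9 of the 10 genes, all but Jun, were upregulated (22.6% of the genes tested in that fit), with log2 fold changes from 0.42 for Fosb to 2.64 for Atf3. Jun then had a log2 fold change of 0.34 (limma adjusted p = 0.125). That fit had 2 samples a group. Leaving out both samples numbered 2, or both numbered 3, gave 0 and 1 upregulated genes of the 10. Over all genes these 2 fits gave 1087 of 11166 and 1355 of 11133 upregulated genes.

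**Figure D2:**
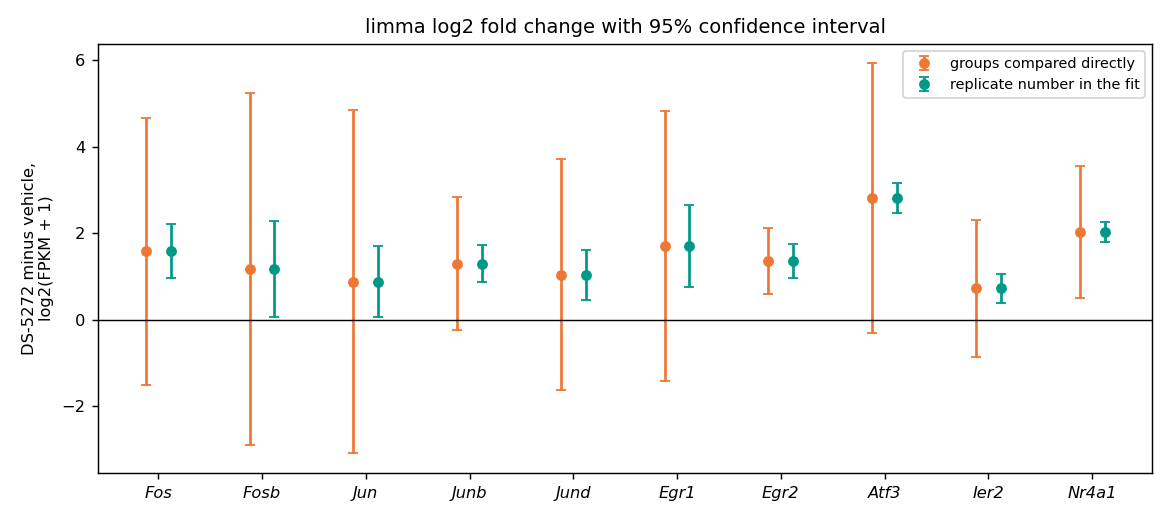
limma log2 fold changes of DS-5272 against vehicle on log2(FPKM + 1), with bars for the 95% confidence interval, for the groups compared directly (orange) and with the replicate number in the fit (teal). The intervals of the direct comparison exclude 0 for Egr2 and Nr4a1, and the narrower teal intervals exclude 0 for all 10 genes before adjustment over all genes. An interval excludes 0 where the unadjusted limma p is under 0.05. Of the 11130 tested genes 6187 met this in the direct fit and 6880 in the blocked fit, in either direction.

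The difference between DS-5272 and vehicle was not the same in every pair. On the log2(FPKM + 1) scale pair 1 had the largest difference for 9 of the 10 genes, against 22.4% of the tested genes, and the exception was Nr4a1 with 1.97, 2.02 and 2.09 in pairs 1, 2 and 3. For Jun the differences were 1.96, 0.20 and 0.47, and for Egr1 they were 2.96, 0.95 and 1.18. Pair 1 consists of 1 sample in each group, so its difference from the other pairs was not tested.

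**Figure D3:**
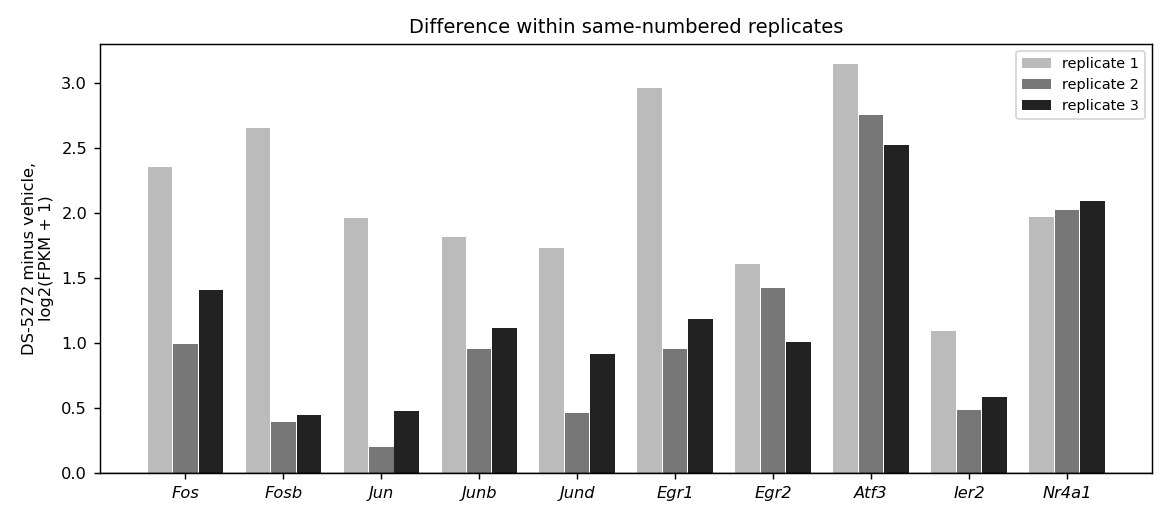
Difference of DS-5272 minus vehicle on log2(FPKM + 1) within replicates numbered 1 (light gray), 2 (gray) and 3 (black). All 30 bars, drawn from the deposited values, are above 0 (the bar of Jun in pair 2 is not after rescaling to a common total), and the light gray bar is the tallest for each gene except Nr4a1.

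Inside both groups replicate 1 was below replicates 2 and 3 for all 10 genes, against 29.2% of the tested genes. It was at least 2-fold below both for 9 of the 10, all but Egr2, while only 1.59% of the tested genes were that low in both groups. The mean of vehicle replicates 2 and 3 was 56.9 times replicate 1 for Fosb, 42.7 times for Jun, 31.6 times for Atf3, 22.7 times for Egr1 and 17.5 times for Fos. With DS-5272 the corresponding factors were 11.1, 13.3, 10.6, 5.80 and 7.75. Junb and Ier2 differed less, by 4.34 and 4.24 times with vehicle and by 2.51 and 2.87 times with DS-5272, and Nr4a1 differed by 3.66 and 3.55 times. Replicates 2 and 3 differed less from each other, with replicate 3 at 0.965 (Jund) to 1.43 (Atf3) times replicate 2 under vehicle and at 0.880 (Egr2) to 1.36 (Fos) times under DS-5272. The median log2 difference between replicates 2 and 3 and replicate 1 was 3.69 with vehicle and 2.51 with DS-5272 over the 10 genes, against 0.01 and 0.06 over all tested genes. Ranked by the mean of this difference over both groups, Fosb and Jun were the first and second of the 11130 genes, 6 of the 10 genes were among the first 20, and 9 were among the first 100. The split was proposed with this pattern known, so these values carry no test.

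**Figure D4:**
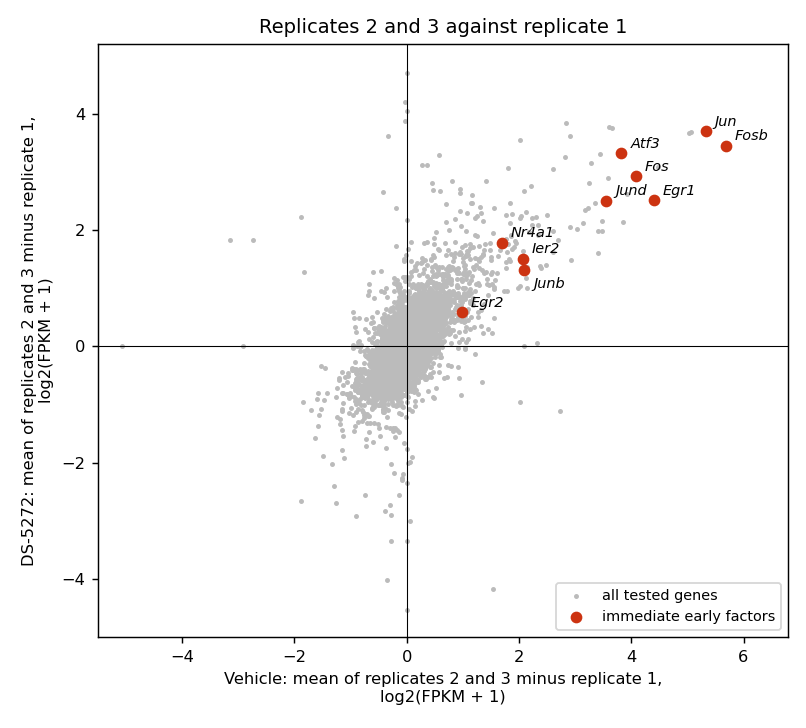
Mean of replicates 2 and 3 minus replicate 1 on log2(FPKM + 1) for vehicle (horizontal axis) and DS-5272 (vertical axis), with all tested genes in gray and the immediate early factors in red. The gray cloud centers near 0 and all 10 red points lie in the upper right, Fosb and Jun farthest out.

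The replicate number accounted for more of the variation over the 6 samples than the treatment in 8 of the 10 genes. Its share of the sum of squares of log2(FPKM + 1) was 93.0% for Jun, 88.3% for Fosb, 85.9% for Jund, 83.0% for Ier2, 79.5% for Fos and 74.4% for Egr1. The treatment held the larger share for Egr2 (74.6%) and Nr4a1 (60.2%). For Atf3 and Junb the treatment held 40.6% and 37.7%. The median over all tested genes was 67.2% for treatment and 19.1% for replicate number. With 3 replicate numbers and 2 groups, these shares describe the samples at hand.

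**Figure D5:**
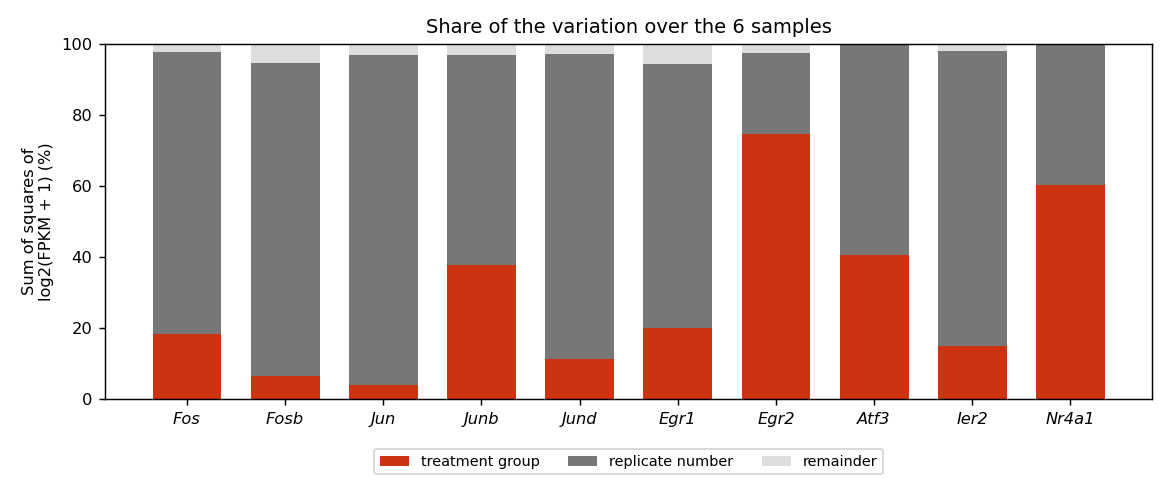
Share of the sum of squares of log2(FPKM + 1) over the 6 samples that belongs to treatment group (red), replicate number (gray) and the remainder (light gray), as percent. Gray is the largest part of the bar for all genes except Egr2 and Nr4a1.

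The levels of the 10 genes varied together across the samples. Over the 45 pairs of genes, Pearson's r of log2(FPKM + 1) across the 6 samples ranged from 0.65 to 0.998 with a median of 0.96. All points share the 6 libraries, and r is given as a description. Outside the lists described here, the genes most like the mean profile of the 10 were Eif4a2 (r = 0.997), Taf7 (0.992), Cxcl2 (0.988), Zc3h12c (0.987), Chi3l3 (0.986), Arf2 (0.985), an entry that joins Mir23a, Mir24-2 and Mir27a (0.982) and Ssr4 (0.982), over 6 samples. Cxcl2, a neutrophil chemokine, stood at 8.38, 269 and 343 FPKM under vehicle and at 145, 1371 and 2529 FPKM under DS-5272.

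Partners and paralogs of these factors were read from further lists. Among all tested genes 24.2% were upregulated and 22% downregulated without the block, and the counts below stand beside those shares. Of 16 other tested bZIP genes, those of the FOS, ATF, BATF and MAF families together with Jdp2 and Nfe2, 6 were upregulated and 1 downregulated, with a median log2 fold change of 0.43. The genes that rose included Fosl2 (log2 fold change 2.06), which encodes the FOS protein Fra-2, and Batf2 (1.40), an interferon-induced partner, while Atf5 fell by 0.34. Fosl2 stood at 5.05, 8.73 and 9.55 FPKM under vehicle and at 23.5, 34.3 and 51.2 FPKM under DS-5272, and unlike Fos its groups did not overlap. Of 4 tested EGR, NR4A and NAB genes, Nab2, Egr3 and Nab1 were upregulated, by 2.55, 1.44 and 0.47. Egr3 stood at 0.194, 0.847 and 0.987 FPKM under vehicle and at 3.01, 4.04 and 3.31 FPKM under DS-5272. It thus passed the filter for testing only through its DS-5272 values. Egr4 and Nr4a3 did not pass the filter. Nab2, a corepressor that EGR factors induce and that damps them, stood at 2.199, 3.01 and 2.52 FPKM under vehicle and at 18.9, 17.9 and 23.3 FPKM under DS-5272. Replicate 1 of Nab2 stood with the other replicates of its group.

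Upstream of the factors, 7 of 22 tested genes for serum response factor, its cofactors, CREB and the MAP kinase chain were upregulated and none was downregulated, with a median of 0.27. Over all tested genes the shares were 24.2% and 22%. With the block 9 of the 22 were upregulated and 2 downregulated, against 30.3% and 24.9% of all tested genes. Mkl1, a cofactor of serum response factor, rose by 0.70, the kinase gene Braf by 0.69 and Elk3 by 0.68. Srf itself had 58.6, 51.8 and 56.8 FPKM with vehicle and 59.9, 56.7 and 49.2 FPKM with DS-5272 in replicates 1, 2 and 3. None of the 22 genes was at least 2-fold lower in replicate 1 in both groups. Of 9 tested MAP kinase phosphatase and Sprouty or Spred genes, which damp the kinases, 3 were upregulated and none was downregulated without a block, and 7 were upregulated with it, with a median of 0.76. Dusp6, a phosphatase of ERK, rose by 3.40, Dusp5 by 1.58 and Dusp7 by 1.01, and 4 of the 9 were at least 2-fold lower in replicate 1 in both groups.

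Other immediate early genes were mostly higher with DS-5272. Of 24 tested genes 23 had a positive log2 fold change, with a median of 1.36 against 0.04 over all tested genes. Without the block 5 were upregulated and 1 was downregulated, against 24.2% and 22% of all tested genes. With the block 20 were upregulated, against 30.3% of all tested genes. The largest rises past the threshold were those of Zfp36l1 (2.81) and Socs3 (2.21), which limit cytokine mRNA and cytokine signaling, and of Csrnp1 (2.17), and Myc fell by 1.23. At least a 2-fold lower level in replicate 1 of both groups was found for 18 of the 24. Of 9 tested genes with textbook AP-1 or EGR sites, 6 were upregulated without the block and 9 with it, with a median of 1.66. Mmp9, a matrix protease, rose by 4.32, the chemokine gene Ccl2 by 3.71, and Plaur, the urokinase receptor, by 1.66.

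Markers of other cell types and states were read in the same samples. Over all tested genes 24.2% were upregulated without the block and 30.3% with it, and 22% were downregulated without it. Of 12 mature myeloid markers (median log2 fold change 2.42), 9 were upregulated and 9 were lower in replicate 1 of both groups, and their summed level was from 2016 to 3803 FPKM with vehicle and from 10482 to 24305 FPKM with DS-5272. Their largest rises were those of S100a9 (4.08), S100a8 (3.69) and Mmp8 (3.36). Among the leukemia markers Itgam rose, from at most 190.4 FPKM under vehicle to at least 530.2 FPKM under DS-5272, Mef2c and Ptprc rose by 1.31 and 1.18, and Mpo and Kit fell by 5.07 and 1.96. Of 9 macrophage markers (median 2.50) 5 were upregulated, led by Siglec1 (3.38), C1qb (2.99) and C1qc (2.90). Their summed level ran from 75.5 to 130 FPKM with vehicle and from 237 to 520 FPKM with DS-5272, highest in DS-5272 replicate 1, and none of the 9 was lower in replicate 1 of both groups. Of 16 tested p53 targets (median 1.38) 3, Sesn2 (1.91), Trp53inp1 (1.85) and Fas (1.61), were upregulated without the block and 13 with it, and 5 were at least 2-fold lower in replicate 1 of both groups, a list that shares Btg2, Plk2 and Plk3 with the other immediate early genes. Of 8 tested heat shock genes (median −0.31) none was upregulated and 3 were downregulated, led by Hspd1 (−1.18) and Hsp90ab1 (−0.67), none was at least 2-fold lower in replicate 1 of both groups, and Hspa1a and Hspa1b were under 1 FPKM in every sample. Erythroid and megakaryocyte markers, with 1 of 3 tested genes upregulated (2 with the block), summed to at most 4.43 FPKM under vehicle and to between 11.7 and 92.0 FPKM under DS-5272, highest in DS-5272 replicate 1. The gene upregulated without the block was Hba-a1 (3.31). Of the 2 tested stroma and endothelium markers Pecam1 was upregulated (1.19), both were with the block, and the 1 tested lymphoid marker was not. The part of mature myeloid, macrophage and erythroid markers and of depth in the levels of the immediate early factors was not tested.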

How the data were processed

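RNA-Seq was carried out on 3 vehicle and 3 DS-5272 samples of MLL-AF9 leukemia cells from bone marrow, and 10 named genes are reported. Per the labels and the paper, the authors trimmed reads with cutadapt 1.8.1, aligned them to GRCm38 transcripts with TopHat2 2.1.1 and obtained gene FPKM values with Cufflinks 2.2.1. The deposited FPKM values are not counts, so no count model was applied. The annotation release and the strand setting are not given in the sources used here.

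From these values, entries with the same name were added up (435 names, none of the 10), and limma 3.58.1 in R 4.3.3 (lmFit, eBayes with trend, log2(FPKM + 1), mean of at least 1 FPKM, Benjamini-Hochberg over 11130 genes, threshold 0.05) was run across all genes and tested on simulated data. Python 3.11.15 with pandas 2.3.3, numpy 2.4.6 and matplotlib 3.10.9 did the rest. P-values measure only the spread between these samples.

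Replicate numbers are shared by both groups. Deviations from group means correlated by 0.66, 0.21 and 0.43 between samples numbered 1, 2 and 3, each above 0.1, so the numbers were taken as pairing the samples. Differently numbered samples gave −0.58 to 0.34, and vehicle replicate 2 correlated more with DS-5272 replicate 3 (0.34) than with DS-5272 replicate 2, so the check sets replicate 1 apart and does not tell 2 from 3. The labels name no shared batch, litter or day. The fit without the block is the main one.

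The 10 genes, the context lists and the split by replicate 1 were chosen with earlier results of these data known. Named genes are all 10, the 3 largest rises and 2 largest falls past the threshold in each list, and the 8 genes most like the mean profile. Of the genes this rule selects, 1 is not reported here. The Fosl2, Nab2, Srf, Itgam, Hspa1a and Hspa1b values, and the searched promoter elements, were picked after their values were seen. Depth was read only as a ratio to vehicle replicate 1, using genes whose values all lay below 0.15 FPKM, and no counting interval was derived.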

Additional observations from a re-analysis of the deposited data

How the results depend on the processing

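Without replicate numbers in the fit, 2 of the 10 genes were upregulated. With the replicate block, which assumes that same-numbered samples are pairs although no label says so, 8 were. The block gave 8 with upper quartile scaling, 8 with a pseudocount of 0.1 and 6 with a common total. These 3 combinations were added after seeing the data. Over all 11130 tested genes they gave 2759, 3369 and 2235 upregulated genes, and the block alone 3367. With no filter, or with a mean of at least 5 FPKM, which removes Egr2 from the tested genes, 1 was upregulated. Over all genes those 2 settings gave 2651 of 18149 and 2298 of 8569 upregulated genes. Leaving out 1 sample gave from 1 to 3, and leaving out both samples of a number from 0 to 9, the lowest without replicate 2 and the highest without replicate 1 in both groups. Over single samples left out, the log2 fold change ran from −0.73 to 2.31 for Fosb, from −0.90 to 2.11 for Jun and from −0.15 to 1.87 for Jund, lowest without vehicle replicate 1 and highest without DS-5272 replicate 1. Without vehicle replicate 1 Fos, Egr1, Ier2, Junb and Atf3 stayed positive at 0.22, 0.23, 0.03, 0.59 and 1.53. Over all genes a common total gave 1713 upregulated genes in place of 2697. Downregulated genes numbered 2451 as deposited, 2771 with the block alone, 3179 with upper quartile scaling alone and 3740 with both, and 3555 with a common total alone and 4526 with both, and leaving out 1 sample gave 1654 to 2920 upregulated and 1404 to 2446 downregulated genes. Leaving out both samples of a number gave 1087 (number 2), 1355 (number 3) and 2507 upregulated genes, against 1055, 1078 and 1651 downregulated ones. The median log2 fold change of all tested genes was 0.04 as deposited and −0.19 with a common total, and the log2 fold change of all 10 genes stayed positive under each scaling tried (upper quartile, median ratio, common total and quantile), while Jun in pair 2 was not higher with a common total. Of 209 alternative values of single genes 168 stayed on their side of the threshold with the same sign. The causes of these shifts were not tested. With 3 samples per group the intervals of Fosb and Jun are wide, and Egr2 lies near the low end of expression.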

Other observations

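Beyond the genes described above, the 20 tested genes with the largest gap between replicates 2 and 3 and replicate 1 over both groups held 14 others, named here after their values were seen. They included the KLF zinc finger genes Klf2, Klf6 and Klf4, with mean log2 gaps of 4.38, 3.78 and 3.59, the phosphatase gene Dusp1 (3.70), the NFKB inhibitor gene Tnfaip3 (3.37), the inflammasome sensor gene Nlrp3 (3.22), the cytokine gene Tnf (3.03) and the granule gene Ngp (3.27). Hist1h1c, a linker histone gene, had a gap of 3.03 but was lower with DS-5272 in each same-numbered pair, by 0.67, 0.25 and 0.21 on the log2(FPKM + 1) scale. The labels do not say what sets the samples numbered 1 apart.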
